A study of Canis lupus familiaris with 22 samples.

Results

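Canine mammary tumours (CMTs) arise spontaneously in the mammary gland of dogs, and the arrays compared here were those of malignant CMTs and of benign CMTs. Members were chosen by their titles: every tumour array with a scanner file, which gave 15 of the 22 arrays of the series, 9 malignant arrays from 5 dogs and 6 benign arrays from 3 dogs. The study set both kinds of tumour against mammary tissue of healthy dogs and then compared the resulting gene lists and pathways. It reported no gene that was up-regulated in all malignant tissues and in no benign one. The question asked here is how the malignant and benign tumours differed when set directly against each other. Each sample was total RNA of surgically removed tumour tissue with an RNA integrity number above 7, labelled with Cy3 and hybridised to an Agilent canine array of 45220 spots. Both groups were pet dogs with a diagnosis and no experimental treatment or genotype in their labels, and age, breed and stage are not part of the labels used here. The labels call the duplicate arrays of a number (a and b) biological duplicates, while the methods describe duplicate arrays of each sample, so both were averaged and counted as 1 dog, and malignant 5 had a single array.

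Diagnosis alone defined the groups. A list of cases in the study gives histological types under the same group names and numbers. If that numbering is shared, malignant 1 was a tubuloacinar solid carcinoma, malignant 2 a mixed papillary and squamous tumour, malignant 3 a myoepithelioma, malignant 4 a squamous cell carcinoma and malignant 5 a lipid rich carcinoma. Under the same reading benign 1 and benign 2 were adenomas and benign 3 was a papillary adenoma. The study counts more benign and healthy dogs than the labels hold, so it is uncertain that the numbering is shared. If it is, each malignant dog was a different kind of tumour, and type and dog cannot be told apart.

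The mammary gland is built of luminal epithelial cells, which make milk, and of contractile myoepithelial cells around them, set in connective tissue and fat. Tumours of the gland also hold blood vessels and leukocytes, and in dogs mixed tumours that form cartilage are well known. Macrophages take up antibody-coated material through Fc receptors, and interleukins and chemokines are the secreted proteins by which leukocytes, stroma and epithelium signal to one another. In bulk tissue fewer cells of a type and less RNA per cell cannot be told apart.

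The level of a gene is given throughout as the log2 processed signal minus the 75th percentile of its array, so that 0 is the brightness of the probe at that percentile, and differences are malignant minus benign on that log2 scale. Levels of different genes were not compared. Of 36619 targets, 28490 were tested, namely those that exceeded background in 4 or more of the 15 arrays, and 1301 of these carried a gene symbol. Arrays of a dog agreed closely (correlation 0.980 to 0.990), whereas different malignant dogs correlated at 0.825 to 0.941 and different benign dogs at 0.907 to 0.918. Malignant arrays tended to be dimmer. The share of probes well above background was 65.5% to 75.3% per malignant dog and 71.8% to 81.2% per benign dog (exact permutation test over the 56 splits of dogs, two-sided p = 0.339), and the 75th percentile intensity was 315 to 1436 against 1090 to 1528 (exact p = 0.143, with 0.0179 as the smallest p the design allows). Malignant 3 had the dimmest arrays, and malignant 5 was scanned on another day, on another scanner and on a slide of its own.

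No gene passed the adjusted threshold. The lowest Benjamini-Hochberg adjusted p of the limma fit was 0.9997, so 0% of 28490 genes were called, and nothing described from here on rose or fell by that test. An unadjusted p of at most 0.05 was reached by 577 genes (2.03%), a smaller share than that threshold passes when no gene differs. Of these, 376 genes were lower in malignant tumours (1.32% of all tested) and 201 were higher (0.706%). Among genes with a symbol the count was more one-sided: 55 were lower (4.23% of 1301) and 4 were higher (0.307%). This balance moved with the test and the background correction. Among genes with a symbol, the t-test of the study's methods, unpaired, gave 30 lower and 20 higher. With the replicate number as a block these were 30 and 15, and with quantile normalization 58 and 5. With normexp correction, which raised the median difference of all genes from 0.08 to 0.34, 216 genes were lower and 336 higher, and among those with a symbol 34 were lower and 16 higher.

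Differences were often large, but so was the spread. The median absolute difference was 0.35, and the 5th and 95th percentiles of the differences were -1.09 and 0.93. A total of 1673 genes were lower by more than 1 log2 unit and 1180 were higher by as much, while the median standard error was 0.55 and the 95% interval reached a median of 1.23 to either side. The SD over dogs had a median of 0.80 in malignant and 0.52 in benign tumours, although an SD from 3 dogs tends to come out smaller than one from 5. The SD was larger in malignant tumours for 71.6% of genes, and for 47.7% when malignant 3 and 5 were left out and 3 dogs were set against 3.

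All 5 malignant dogs lay below all 3 benign dogs for 254 genes (0.892% of 28490) and above them for 305 (1.07%). Among genes with a symbol these counts were 18 (1.38% of 1301) and 20 (1.54%). If dogs of both groups were alike, 1 of the 56 splits, a fraction of 0.0179, would be expected in each direction. None of these shares exceeded it, so the counts are no sign of a difference. The genes with a symbol and the largest differences without overlap fell into different kinds of gene. The lower set held leukocyte genes (FCGR1A, FCER1G, CD209, TNFRSF18), regulators of interleukin signalling (IL1A, IL18BP) and the extracellular sulfatase SULF1, and the higher set was led by ADIPOQ and contained RPL13A, RPL21, RPL37 and RPL7A.

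**Figure D1:**
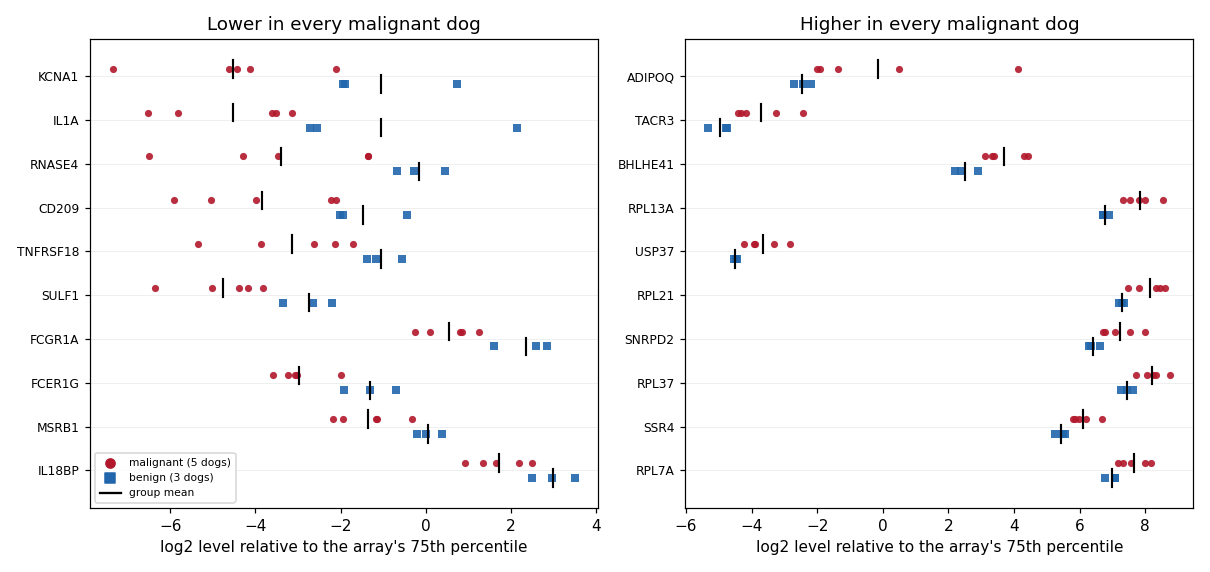
Level of 20 genes in each dog (x axis, log2 relative to the array's 75th percentile), malignant dogs as circles, benign dogs as squares and group means as black bars. These are the 10 genes lower and the 10 genes higher with the largest differences among genes with a symbol whose groups did not overlap and whose probe was well above background on every array of at least 1 group and on at least 1 array of the other, so the gap between colours in each row is what chose the row.

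The clearest lower genes of the leukocyte group encode Fc receptor proteins. FCGR1A, the high-affinity receptor for IgG on macrophages, had levels of 0.86, -0.24, 0.81, 0.10 and 1.25 in malignant dogs 1 to 5 and of 1.59, 2.86 and 2.58 in benign dogs 1 to 3. Every malignant dog was below every benign dog, and the difference was -1.79 (SE 0.49, 95% interval -2.89 to -0.69), 3.46-fold lower. FCER1G, the signalling chain shared by several Fc receptors, had levels of -1.99, -3.24, -3.01, -3.07 and -3.58 in malignant and of -1.92, -1.32 and -0.69 in benign dogs. Here malignant 1 was only just under benign 1, and the difference was -1.67 (SE 0.48). Both genes were lower in 4 of the 4 slides that held arrays of both groups, FCER1G by only -0.14 on the slide with malignant 1 and benign 1. The slides share dogs, and lack of overlap between dogs nearly fixes this count, so it is no separate support. With normexp the difference was -1.77 for FCGR1A and -0.83 for the dimmer FCER1G.

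These genes stood in a list of 24 macrophage and myeloid markers, of which 10 were tested. Of these, 9 were lower and 1 was higher, with a median of -1.12 beside -0.05 for all genes with a symbol, of which 53.3% were lower and 46.7% higher. FCGR1A, FCER1G and CD80, a costimulatory ligand of antigen-presenting cells (-1.49, SE 0.66), had an unadjusted p of at most 0.05, which is 3 of 10 beside 4.23% of genes with a symbol lower at that p. The other lower members were CYBB (-1.48), SLC11A1 (-1.17), CD163 (-1.07), CD86 (-0.83), TYROBP (-0.71) and CTSS (-0.67), and the higher one was CHI3L1 (1.25). The count was 9 of 10 again without malignant 3, without malignant 5 and under normexp or quantile scaling. It was not so in every slide: on the one that held malignant 1 and benign 1, 2 of 10 were lower (median 0.25), against 9 of 10 on each of the other 3. Those 3 slides hold duplicate arrays of the same dogs (malignant 3, malignant 4, benign 2 and benign 3), so they are not separate comparisons. Averaged over the list, malignant 1 stood at 1.57 and the other malignant dogs at 0.78 or less, with the benign dogs between 1.19 and 1.96.

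Further surface molecules of myeloid cells and lymphocytes went the same way with more spread. CD209, a lectin of dendritic cells and macrophages, had levels of -2.10, -2.23, -5.03, -5.91 and -3.97 in malignant and of -1.93, -0.45 and -2.02 in benign dogs. The difference was -2.38 (SE 0.91), with malignant 1 and 2 close to the benign values and malignant 3, 4 and 5 well under them. ADGRE2, an adhesion receptor of myeloid cells, was lower by 3.79 log2 units on average (SE 1.20), but malignant 1 and 2 overlapped benign 1. CD209 and ADGRE2 were well above background on 5 and 6 of the 9 malignant arrays, so their lowest levels may lie near background. TNFRSF18, a costimulatory receptor of T cells that is abundant on regulatory T cells, had a difference of -2.10 (SE 0.78) without overlap. CTSC, the protease that activates the granule enzymes of leukocytes, differed by -2.17 (SE 0.89) and was picked for mention after its value was seen.

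Genes of lymphocytes themselves gave no uniform picture. In the list of T cell and NK cell markers 8 of 10 tested genes were lower, with a median of -0.53, led by CTLA4 (-2.13, SE 1.12), IL2RA (-1.66, SE 0.44) and FOXP3 (-1.19, SE 0.55), 3 genes of regulatory or activated T cells. CD8A (0.39) and IL2RG (0.63) were higher, and CD4 (-0.29), CD28 (-0.12) and PRF1 (-0.02) differed little on average. IL2RA was not well above background on any of the 9 malignant arrays and was so on 4 of the 6 benign arrays. With normexp correction IL2RA turned to 0.37 and FOXP3 to 0.48, and the list to 2 of 10 lower. Without benign 3, 5 of 10 were lower. FOXP3 had no malignant array well above background either, so IL2RA and FOXP3 passed the detection filter through benign arrays alone. The 3 tested B cell and plasma cell genes were 2 lower and 1 higher (median -0.47).

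Mast cell genes were lower in 3 of 4 cases. CMA1, the chymase of mast cell granules, had a difference of -2.29 (SE 0.99), MS4A2 and FCER1A, chains of the IgE receptor, of -1.74 and -1.71, and the growth factor receptor KIT, which other cells also carry, of 0.82. Malignant 2 stood apart from the other malignant dogs here, with CMA1 at -0.33, MS4A2 at -0.94 and FCER1A at 0.43, inside or above the benign ranges.

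**Figure D2:**
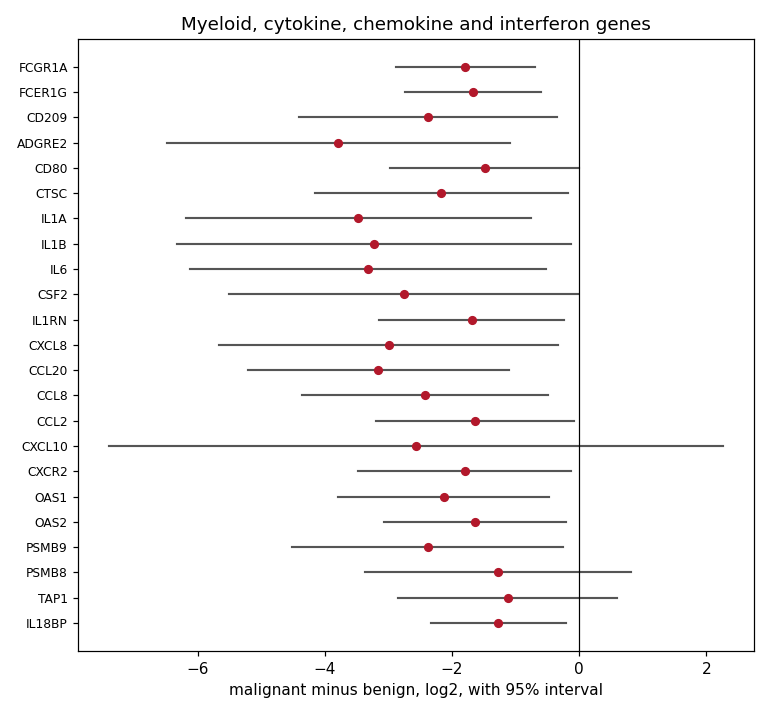
Difference between malignant and benign tumours (x axis, log2) for 23 genes of myeloid cells, cytokines, chemokines and interferon response, as points with the 95% interval of the limma fit as bars. The intervals of FCGR1A and FCER1G are among the shortest, while that of CXCL10 runs from -7.40 to 2.26. The genes were chosen in part for their differences. Higher members of the same lists, such as CHI3L1, are not drawn, so that all 23 points lie below 0 is a result of the choice.

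Among the tested interleukins and chemokines, IL1A, IL6 and IL1B had the largest differences. IL1A, an alarm cytokine released by epithelium and macrophages, had levels of -3.14, -3.51, -6.52, -3.61 and -5.81 in malignant and of -2.72, -2.55 and 2.15 in benign dogs. The groups did not overlap, and benign 3 stood far above the rest, so that the difference of -3.48 (SE 1.21) rested partly on that dog. IL1B had levels of -4.98, -4.93, -6.49, -7.02 and -6.85 in malignant and of -7.17, -0.93 and -0.37 in benign dogs. It was well above background on 3 of 9 malignant and 4 of 6 benign arrays, so the order of its low levels may be background. As measured, benign 1 was below all malignant dogs, and benign 2 and 3 were above them all. The same division of the benign dogs was seen for IL6, the acute-phase cytokine (benign levels -2.29, 0.95 and 0.43), and for CSF2, the growth factor of granulocytes and macrophages (-5.74, -0.22 and 0.55). Their differences were -3.32 (SE 1.25) and -2.76 (SE 1.23). IL1A, IL6 and CSF2 were well above background on 6, 5 and 6 of the 9 malignant arrays and on 6, 6 and 4 of the 6 benign arrays.

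Of 25 interleukin and interferon ligands tested, 20 were lower and 5 higher, with a median of -0.50. IL1A, IL6, IL1B, CSF2 and the interleukin 1 antagonist IL1RN (-1.69, SE 0.65) had an unadjusted p of at most 0.05, that is 5 of 25 lower, beside 4.23% of all genes with a symbol. TNF (-0.04), IL10 (-0.36), LIF (-0.18) and IL12A (0.32) were near 0 on average. Many of these genes were dim, and the count depended on the background correction: 9 of 25 were lower with normexp (median 0.18) and 12 of 25 in the authors' table of uncorrected signals. On the slide with malignant 1 and benign 1, 9 of 25 were lower. IL1A stayed at -1.59 and IL6 at -1.68 with normexp. IL18BP, the secreted inhibitor of interleukin 18, was brighter and moved little with the setting, with levels of 1.36, 2.49, 1.64, 2.20 and 0.93 in malignant and of 2.98, 2.50 and 3.50 in benign dogs. Its difference was -1.27 (SE 0.47) and -1.33 with normexp, with malignant 2 barely below benign 2.

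Chemokines, which attract leukocytes, were lower in 15 of 19 tested genes, with a median of -0.98, beside 53.3% lower among all genes with a symbol. The 4 of 19 lower with an unadjusted p of at most 0.05, beside 4.23% of all genes with a symbol, were CCL20 (-3.16, SE 0.92), CXCL8 (-3.00, SE 1.19), CCL8 (-2.42, SE 0.87) and CCL2 (-1.64, SE 0.70). CCL20, which attracts dendritic cells and some T cells, had levels of -2.48, -3.43, -3.55, 0.40 and -4.06 in malignant and of 0.06, 1.08 and 0.46 in benign dogs, so that only malignant 4 reached the benign range. CXCL8, the main neutrophil attractant, had levels of 1.58, 0.76, -0.66, 2.30 and -0.25 against 0.32, 5.46 and 5.44. Benign 1 was again within the malignant range. The interferon-induced CXCL10 ranged from -6.31 to 3.27 over malignant dogs and differed by -2.57 (SE 2.16). On the slide with malignant 1 and benign 1 the chemokine median was 0.91, with 7 of 19 lower. On the other 3 slides, which share dogs, it was between -1.75 and -0.85. With normexp 11 of 19 were lower, and without malignant 3 and 5 it was 12 of 19 with a median of -0.25.

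The receptors showed less. Of 8 chemokine receptors tested 5 were lower (median -0.27), among them CXCR2, the neutrophil receptor for CXCL8, by 1.80 log2 units (SE 0.75). The neutrophil list was divided, with S100A8, a calcium-binding protein that inflamed epithelium also makes, at -2.82 (SE 1.35), CXCR2 lower, and ELANE (0.41) and CAMP (0.57) higher. S100A8 stood at 7.84 in malignant 4 and at 1.63 to 4.17 in the other malignant dogs, with 5.34 to 8.45 in benign dogs.

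Genes of the interferon response were lower throughout the list. All 8 tested members had a negative difference, between -2.57 and -0.45, with a median of -1.76. The lowest of them, CXCL10, is also in the chemokine list. OAS1, an antiviral sensor of double-stranded RNA, had levels of 0.49, -1.29, -2.14, -0.61 and -2.19 in malignant and of 1.87, -0.39 and 1.47 in benign dogs. Malignant 1 exceeded benign 2, and the difference was -2.13 (SE 0.74). OAS2 gave -1.64 (SE 0.64), MX1 -1.89 and EIF2AK2 -0.93. The count was 8 of 8 without malignant 3, without malignant 5 and without either benign 1 or benign 3, and 7 of 8 with normexp. The mean level of the list was 1.41 in malignant 1 and between -1.34 and -0.24 in the other malignant dogs, while benign dogs stood at 1.66, -0.09 and 1.95, so the groups overlapped. On the slide with malignant 1 and benign 1, 6 of 8 were lower.

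Antigen presentation genes had negative differences as well, with smaller values. Of 16 dog MHC and antigen presentation genes 13 were lower, with a median of -0.74. PSMB8 and PSMB9 are members of the interferon response list too, so the counts of these lists are not separate. PSMB9, a subunit of the immunoproteasome, had levels of 4.69, 0.34, 1.57, 2.72 and 3.39 in malignant and of 5.31, 3.50 and 5.96 in benign dogs, a difference of -2.38 (SE 0.95). PSMB8 (-1.28) and the peptide transporters TAP1 (-1.13) and TAP2 (-0.94) had negative differences, as did the class I gene DLA88 (-1.1) and the class II genes DLA-DQA1 (-0.81) and DLA-DMA (-0.84). DLA-DRA (0.09) and DLA-DOB (0.03) differed little on average. The DLA genes are similar in sequence, so a probe may read more than 1 of them. Without malignant 3 the count became 11 of 16 and the median -0.13, and on the slide with malignant 1 and benign 1 only 5 of 16 were lower.

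In a list of prostaglandin enzymes and receptors 9 of 10 tested genes were lower (median -0.87), none at an unadjusted p of 0.05 or less. PTGS2, the inducible cyclooxygenase, had levels of -1.95, -0.19, -0.80, -3.26 and 1.1 in malignant and of -2.01, 2.67 and 3.82 in benign dogs. Benign 1 lay within the malignant range, as it did for CXCL8 and IL6, and the difference was -2.51 (SE 1.33). PTGES, the prostaglandin E synthase, differed by -1.81 (SE 0.95). AKR1C3 had the largest difference of the list, -2.95 (SE 1.53). It was well above background on 0 malignant and 4 benign arrays, so it passed the detection filter through benign arrays alone. With normexp 6 of 10 were lower.

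**Figure D3:**
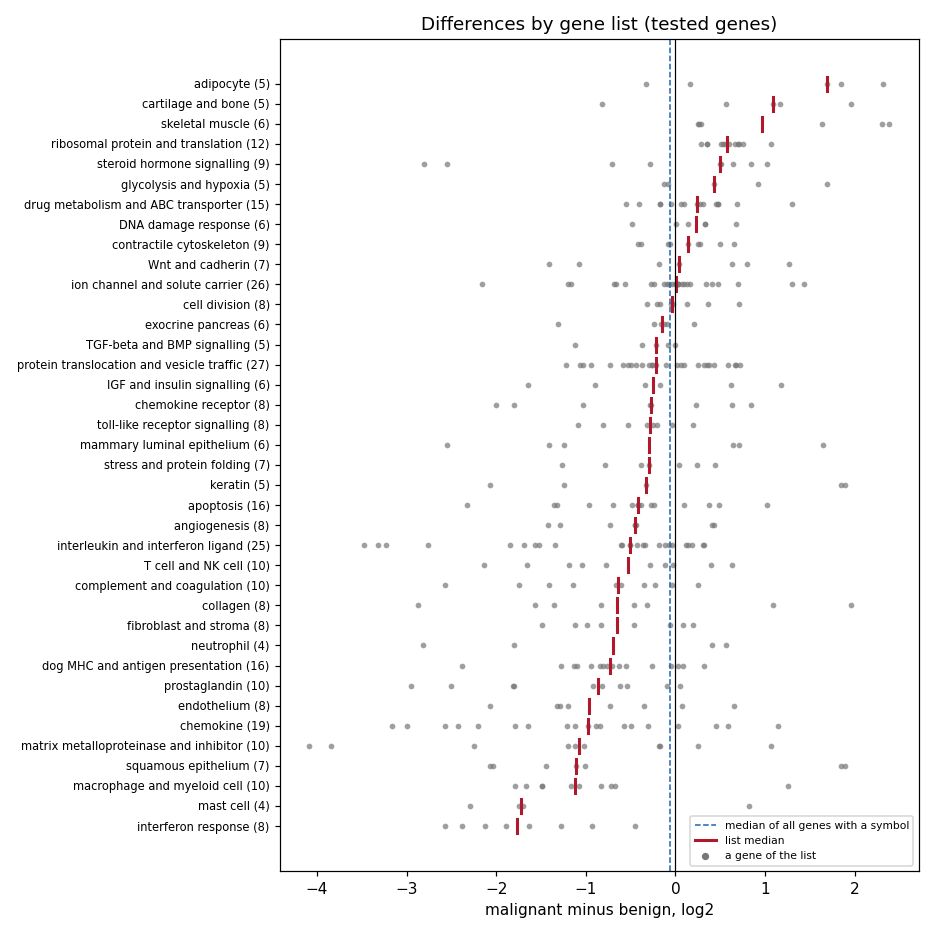
Differences between malignant and benign tumours (x axis, log2) for the tested genes of each list with at least 4, as grey points, with the list median as a red bar and the median of all genes with a symbol as a dashed line. Numbers in brackets are the genes tested. The interferon response and mast cell lists have the lowest medians (-1.76 and -1.72) and the adipocyte list the highest (1.70).

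Matrix proteases had some of the largest differences and some of the largest spreads. Of 10 metalloproteinases and inhibitors 8 were lower, with a median of -1.07. MMP7, matrilysin, an epithelial protease, had levels of -3.30, -0.70, -6.33, -3.24 and -7.28 in malignant and of 0.74, -3.91 and 2.18 in benign dogs, a difference of -3.84 (SE 1.67). MMP3, stromelysin 1, differed by -4.08 with a SE of 3.0, and the dogs of each group lay far apart, at -6.96, -7.16, -1.0, -7.56 and 3.22 in malignant against -6.56, 3.98 and 3.16 in benign dogs. MMP3 was well above background on 3 of 9 malignant and 4 of 6 benign arrays, and MMP7 on 6 of 9 and 6 of 6. Their lowest levels may lie near background, which leaves the size of both differences uncertain. MMP12, the macrophage elastase, had -2.25 (SE 1.07). TIMP1, an inhibitor of these proteases, was lower (-1.12) and TIMP2 higher (1.07). PLAU, the urokinase that activates plasminogen, was lower by 2.57 log2 units (SE 0.80), with malignant 1 above benign 1 and the other 4 malignant dogs below all benign dogs.

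SULF1 removes sulfate groups from heparan sulfate outside the cell. It had levels of -3.81, -4.38, -5.03, -4.16 and -6.37 in malignant and of -3.34, -2.20 and -2.66 in benign dogs, with no overlap and a difference of -2.02 (SE 0.61). It was dim, with 6 of 9 malignant arrays well above background, and normexp brought the difference to -0.36. Other sulfatase genes, looked at after these values were known, had negative differences too: SULF2 -1.25 (SE 0.53), ARSI -3.21 (SE 0.84), ARSJ -1.98 (SE 0.62) and ARSL -1.27 (SE 0.54). With normexp these were -0.53, -0.65, -1.0 and -0.20 in the same order. All of these are among the genes with an unadjusted p of at most 0.05. Sulfatase genes without such a p were not counted, so the family as a whole is not described. HGF, a growth factor for epithelium made by stroma, was also picked after its value was seen and differed by -2.61 (SE 0.80), with malignant 2 alone reaching the benign range.

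Structural genes of the stroma were mixed. Of 8 collagen genes 6 were lower (median -0.65). COL7A1, the anchoring fibril collagen under stratified epithelium, differed by -2.87 (SE 1.25), with malignant 4 at 2.44 and the other malignant dogs between -2.51 and -1.18. COL1A1 (-0.83) and COL1A2 (-0.46), the fibrillar collagens of connective tissue, were well within their spread. Of 8 fibroblast and stroma genes 6 were lower (median -0.65), with THY1 at -1.49 (SE 1.06) and DCN at -1.12 (SE 0.89). The second probe of THY1 had the opposite sign. VIM, vimentin, did not separate the groups (-0.06, 95% interval -1.80 to 1.68).

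Of the markers that define the tissue, the epithelial genes KRT14, ESR1 and PGR and the stromal VIM were tested, and KRT5, KRT8, KRT18 and ACTA2 were not among the named targets tested. KRT14, the basal keratin, was well above background on all 15 arrays, with levels of 6.24, 5.99, 2.99, 7.34 and 0.86 in malignant and of 4.87, 1.79 and 8.37 in benign dogs. The groups overlapped fully (-0.33, SE 1.70). CDH1, the adhesion molecule of epithelium, was between 3.59 and 4.15 in malignant 1, 2 and 4 but at -0.55 in malignant 3 and -0.69 in malignant 5, with 2.65 to 4.20 in benign dogs. CLDN3, a tight junction protein of luminal cells, differed by 1.65 (SE 1.04). The 6 luminal markers were 3 lower and 3 higher (median -0.30) and their mean level ran from 1.93 in malignant 2 to -3.15 in malignant 5.

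Hormone receptors and hormones differed from one another. PGR, the progesterone receptor, had levels of -0.89, -0.65, -3.89, -2.45 and -4.13 in malignant and of 2.54, -0.61 and -1.48 in benign dogs. Malignant 1 and 2 exceeded benign 3, and the difference was -2.55 (SE 1.09), 5.86-fold lower. GH1, growth hormone, which the canine mammary gland is known to make under progestins, had a difference of -2.81 (SE 1.14) with 6 of 9 malignant and 6 of 6 benign arrays well above background. ESR1, the oestrogen receptor alpha, ranged from -7.26 to -1.07 in malignant and from -7.72 to -1.61 in benign dogs, and its difference of 0.65 (SE 1.70) changed sign without malignant 2 or without benign 3. Over the 9 steroid hormone signalling genes 5 were higher and 4 lower.

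Single dogs stood out for several genes. Some of these genes were named for their large SD within a group, so a wide spread between dogs is what chose them. CSN2, beta-casein, stood at 8.48 in malignant 2 and between -7.22 and 0.10 in the other malignant dogs, and LALBA, alpha-lactalbumin, at 8.04 in malignant 2 and at -1.21 or less in the other malignant dogs. In malignant 4 the epidermal keratins KRT1 (6.10) and KRT2 (2.98) were the highest of all 8 dogs, and KRTDAP, a protein of differentiating keratinocytes, stood at 6.87, with benign 3 at 7.97. COL2A1, the collagen of cartilage, was at 7.39 in malignant 3 and at 1.61 or less in every other dog. MYH8, a skeletal muscle myosin, was at 0.78 in malignant 3 and between -6.92 and -4.17 elsewhere.

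Malignant 5 had low levels of several epithelial products and high levels of genes of fat cells. SLPI, a secreted protease inhibitor of epithelium, was at -6.44 in that dog and at 2.17 to 7.88 in the other malignant dogs, KRT15 at -7.30 against 2.65 to 7.79, and LTF, lactoferrin, at -5.64 against 0.60 to 3.89. PPARG, the master regulator of fat cells, was at 5.09 and MLANA, an antigen of pigment cells, at 3.83, the highest of the 8 dogs in each case. The imprinted RNA H19 singled out a benign dog instead, at 7.18 in benign 2 and at 0.93 or less elsewhere. Benign 2 was also the benign dog in which SLPI was low (-1.02). The probes used for SLPI, KRT15 and LTF were each detected in 8 of the 9 arrays from malignant dogs. Their levels in malignant 5 may therefore lie near background. The other SLPI and LTF probes were detected in all 9, with smaller group differences. These were -0.39 rather than -1.18 for SLPI, and -0.60 and -0.19 rather than -1.18 for LTF.

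**Figure D4:**
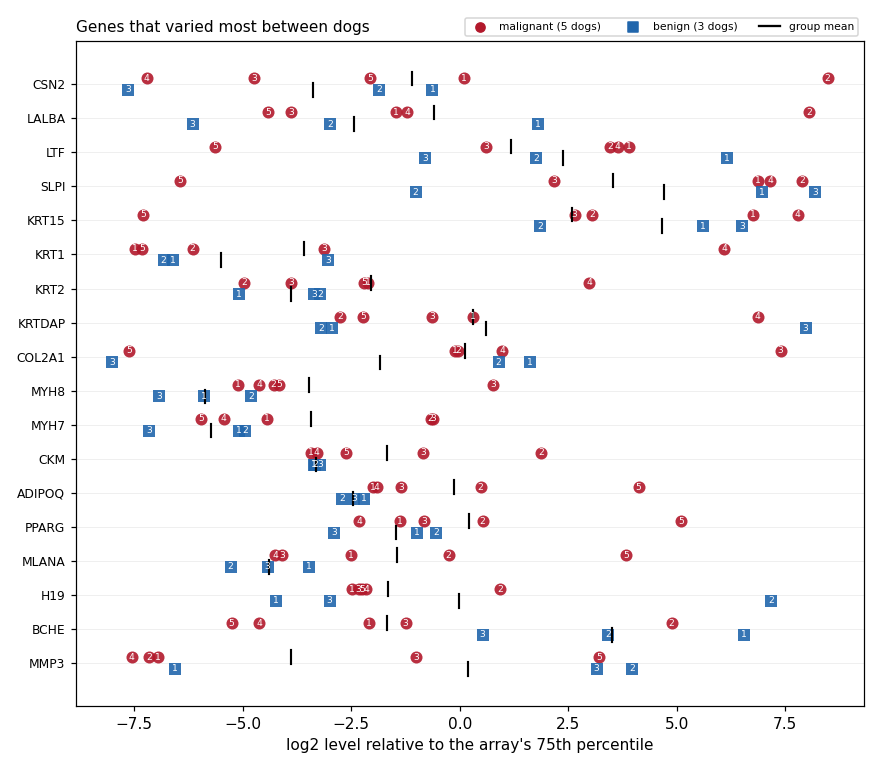
Level of 18 genes in each dog (x axis, log2 relative to the array's 75th percentile), with the number of the dog inside each symbol, malignant dogs as circles, benign dogs as squares and group means as black bars. Malignant 2 is alone at the right for CSN2 and LALBA, malignant 4 for KRT1 and KRT2, malignant 3 for COL2A1 and MYH8, and malignant 5 for ADIPOQ, PPARG and MLANA.

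ADIPOQ, the hormone adiponectin of fat cells, had the largest positive difference without overlap among genes with a symbol. Its levels were -2.0, 0.48, -1.36, -1.92 and 4.12 in malignant and -2.20, -2.71 and -2.44 in benign dogs. All malignant dogs were above all benign dogs, yet malignant 1 and 4 by less than 0.3 log2 units, and the difference of 2.32 (SE 1.26) was 1.25 without malignant 5. Of 5 adipocyte genes 4 were higher, with CD36 at 1.85 (SE 1.07), PPARG at 1.70 (SE 1.47) and LEP at 0.16. The list median was 1.70, and 0.48 without malignant 5. All 6 skeletal muscle genes tested were higher (median 0.96), MYH8 by 2.39 (SE 1.23), MYH7 by 2.30 (SE 1.33) and CKM by 1.64 (SE 1.1), and these 3 were highest in malignant 2 or malignant 3. Of 6 other probes of MYH7 measured, 4 had a difference of the same sign.

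BHLHE41, a transcription factor of the circadian clock, was well above background on all 15 arrays and had levels of 3.32, 3.12, 3.38, 4.31 and 4.43 in malignant and of 2.90, 2.39 and 2.19 in benign dogs, and a difference of 1.22 (SE 0.45) that stayed at 1.04 without malignant 5 and 1.11 with normexp. TACR3, the receptor for neurokinin B, was dim but well above background on all arrays, with -4.32, -4.17, -3.26, -4.42 and -2.44 against -5.32, -4.76 and -4.78. Its difference was 1.23 (SE 0.53), with malignant 5 the highest.

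Ribosomal protein genes had small, even differences in a single direction on the main scale. RPL13A, a protein of the large subunit, had levels of 7.33, 7.55, 7.80, 8.0 and 8.56 in malignant and of 6.72, 6.70 and 6.91 in benign dogs, a difference of 1.07 (SE 0.40). All 12 tested genes of the ribosomal protein and translation list were higher (median 0.58, and 10 of 12 with quantile normalization), as were all 24 genes with an RPL or RPS symbol, gathered after the first values were seen (0.28 to 1.07, median 0.60). Of the 24, 10 had no overlap between groups, beside 1.54% of genes with a symbol. Other bright genes were mostly higher too: of the 318 genes with a mean level above 6, 90.9% were higher in malignant tumours, and 10.7% had no overlap in that direction. For the 80 genes above 8 the median difference was 0.59, and 100% were higher.

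Array brightness moved with this group of genes. The log2 of the 75th percentile, which the scaling subtracts, was 0.903 lower in malignant than in benign arrays on average, and before that subtraction the mean log2 intensity of the 24 genes was between 15.88 and 17.99 in malignant and between 17.33 and 17.67 in benign dogs, a difference of -0.27. Quantile normalization left 21 of the 24 higher with a median of 0.14, and took the genes above 8 to a median of -0.05. The part of brightness in the higher ribosomal levels was not tested. SNRPD2, a spliceosome protein, and SSR4, a subunit of the translocon complex, belong to the same range of levels, with differences of 0.81 (SE 0.42) and 0.67 (SE 0.37).

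**Figure D5:**
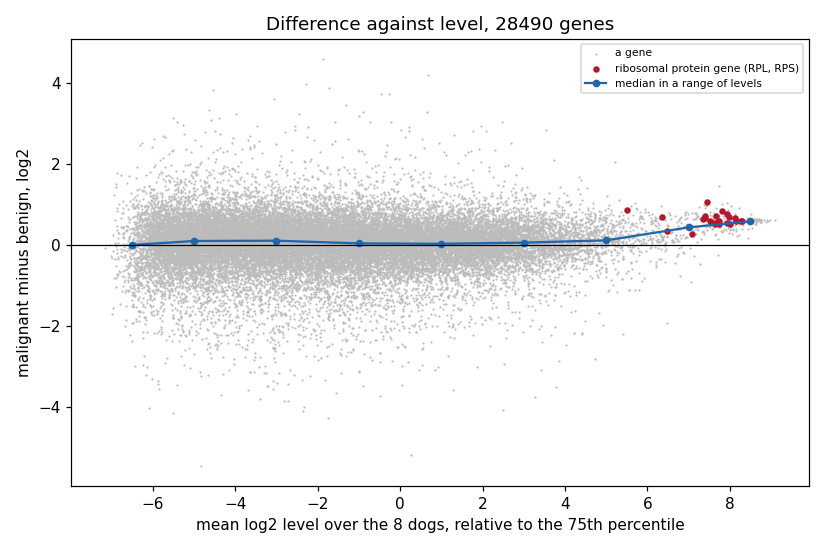
Difference between malignant and benign tumours (y axis, log2) against the mean level over the 8 dogs (x axis, log2 relative to the 75th percentile) for 28490 genes as grey points, with genes of ribosomal proteins in red and the median within ranges of level in blue. The blue line stays between 0.00 and 0.12 up to a level of 6 and reaches 0.59 above 8 on this scale, and the red points lie at levels of 5.49 to 8.29.

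Growth and survival genes differed little as groups. Of 8 cell division genes 3 were higher (median -0.04), with CCND1, cyclin D1, at 0.71 (SE 0.60), CCNB2 at -0.17 and BIRC5, survivin, at -0.02. DNA damage response genes were higher in 5 of 6 cases with a median of 0.23. Of 16 apoptosis genes 12 were lower (median -0.42), led by BIRC3, an inhibitor of apoptosis that NF-kB induces (-2.33, SE 1.12), and BCL2 was higher (1.02). Angiogenesis genes were lower in 6 of 8, ion channels and solute carriers were 13 lower and 13 higher, and none of these lists had a member at an unadjusted p of 0.05 or less.

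The remaining genes with large values belong to no list. BCHE, butyrylcholinesterase, had the largest difference of all genes with a symbol, -5.17 (SE 2.17), with levels of -2.10, 4.88, -1.25, -4.62 and -5.26 in malignant and of 6.54, 3.42 and 0.53 in benign dogs. Malignant 2 lay within the benign range, and the 4 other malignant dogs lay below it. KCNA1, a voltage-gated potassium channel, had levels of -4.44, -2.10, -4.61, -4.13 and -7.34 against -1.90, 0.73 and -1.95 and a difference of -3.48 (SE 1.07). RNASE4, a secreted ribonuclease, differed by -3.22 (SE 1.09) and MSRB1, a selenoprotein that repairs oxidised methionine, by -1.42 (SE 0.49), both without overlap. KCNA1 and RNASE4 were each well above background on 6 of 9 malignant arrays, so their lowest levels may lie near background.

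SLC7A11, the cystine transporter that feeds glutathione synthesis, had the lowest unadjusted p among genes with a symbol and was picked after its value was seen. It was well above background on all 6 benign arrays and on none of the 9 malignant ones, so it passed the detection filter through the benign arrays alone. Its rank by p is therefore no separate support for the difference. Set against a floor, the mean of the 5 malignant dogs was at least 4.62-fold (2.21 log2 units) below the benign mean. The measured difference was -3.46 (limma adjusted p 0.9997), with a 95% interval of -5.17 to -1.745. That interval reaches smaller differences than the floor gives. The bound is therefore for the means of the measured dogs and not for malignant tumours at large. The floor is, in each malignant array, the dimmest signal well above background or the probe's own signal where that is higher, averaged over the malignant dogs. The measured levels were -8.41, -6.84, -5.30, -5.44 and -7.59 in malignant and -3.81, -3.65 and -2.31 in benign dogs. With normexp, which changes the background of dim probes, the measured difference was -0.64, so the bound holds on the processed signals only.

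Some targets without a symbol had large differences without overlap as well. The target TC61650 was higher in all malignant dogs, at 0.97, 1.27, 0.09, 2.28 and 1.04 against -0.40, -3.28 and -4.08, a difference of 3.72 (SE 0.81). The transcript ENSCAFT00000031736 was higher by 4.20 on average (SE 1.15). Lower without overlap were ENSCAFT00000006675 (-3.55, SE 1.01) and ENSCAFT00000037474 (-3.40, SE 0.85). The tables used here pair none of these 4 with a gene name.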

How the data were processed

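Per the labels, total RNA of each tumour was labelled with Cy3 and hybridised as duplicates, and the authors extracted intensity values per spot with Agilent Feature Extraction (11.5.1.1 per the file headers and processing notes). The deposited files hold processed, background-adjusted intensity and the median signal and background of each spot. The deposited table of the series holds median-signal intensity, equal in all 45220 spots to the scanner files of the 19 arrays compared.

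Here log2 processed intensity minus the 75th percentile of the array over non-control probes was used. Outlier spots were left out, spots of a probe and arrays of a dog were averaged, and the brightest probe stood for a gene. Genes well above background on at least 4 of 15 arrays were tested with limma 3.58.1 (R 4.3.3), 5 dogs against 3, with Benjamini-Hochberg adjustment at 0.05. One gene had a dog missing from its fit (1 of 28490). Symbols came from RefSeq accessions of the assembly UU_Cfam_GSD_1.0 for 2353 of 43603 probes, all others being unnamed. The number of arrays limits the precision, and p-values measure the spread between dogs. Gene lists and comparisons were chosen with earlier results of these data known. Named genes with a symbol were the 10 largest without overlap (detected over background in every array of 1 group or both and in 1 array or more of the other) and the 5 largest whatever the overlap (detected in both groups) in each direction, the 5 with the largest SD, the 3 largest of each list, tissue markers and 2 unnamed targets in each direction, and genes picked later are said to be so. They are SLC7A11, CSF2, CCL2, CCL8, IL1RN, OAS2, SULF2, ARSI, ARSJ, ARSL, HGF, CTSC and the RPL and RPS genes. Further list members are given to complete a list's account. The fit was checked on simulated data. Alternatives included normexp (offset 50), quantile and median scaling, filters, slide and scan-day blocks, the authors' table, the methods' t-test and leaving out each dog. Malignant 6 and the second array of malignant 5, for which only the table was used, entered 1 alternative, and the healthy dogs another. No sequence is printed, since the tables used here hold none. Some genes are not reported here.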

Additional observations from a re-analysis of the deposited data

Results flagged for a closer look

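Among the 5 malignant dogs, a single dog stood apart from the rest, by Dixon's criterion at the 95% level, for 4 of the 103 measures examined, and chance alone flags about 1 in 20. Malignant 3 was high for MYH8 (level 0.776), malignant 2 for H19 (0.930) and LALBA (8.04), and malignant 4 for COL7A1 (2.44). The cause was not tested, and the study's case list gives each of these 3 numbers a different tumour type.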

How the results depend on the processing

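The absence of calls held under normexp, quantile and median scaling, other filters, other probe rules, outlier spots kept, healthy dogs in the fit, a trended variance, the methods' t-test, slide or scan day as a fixed block and the authors' table, each with 0 genes called. Counting each array as an independent sample gave 31 calls, 3152 genes with an unadjusted p of at most 0.05 (577 as reported), 276 without overlap (559 as reported) and 82 members of the gene lists at that p (25 as reported). A random slide block over arrays gave 50, 3370 and 81 in the first, second and last of these. In both of these fits duplicate arrays of a dog are treated as replicates. The methods' t-test gave 12 list members, and the authors' table with 6 malignant dogs gave 930 genes at that p. Leaving out 1 dog at a time gave 0 to 1 calls, 413 to 900 genes at the unadjusted threshold of 0.05 (882 without malignant 1 and 900 without benign 1), 801 to 2132 without overlap and 12 to 39 list members. The single call came without benign 3, for the unnamed ENSCAFT00000014336 (-8.71, limma adjusted p 0.0385). Without malignant 3 and 5, an alternative chosen after seeing the data, 1993 genes did not overlap, 16 list members had an unadjusted p of at most 0.05 and 47.7% of genes had the larger SD in malignant tumours. The share of genes at that p that were higher in malignant tumours was 34.8% as reported, 60.9% with normexp, 54.1% with the authors' table, 69.4% with the table and 6 dogs, 50.1% with the methods' t-test and 15.5% without benign 3, and the median difference of all genes was 0.08, 0.34 with normexp and 0.25 with the table. Deviations of same-numbered dogs correlated at 0.06, -0.10 and 0.00, and those of dogs with unlike numbers at -0.25 to 0.28. So few pairs cannot show whether the numbers paired the dogs. With the replicate number as a block, 0 genes were called and 478 had an unadjusted p of at most 0.05, and the sign turned for SLPI (0.93), LTF (0.28), KRT1 (-0.0898) and KRT14 (0.0624). IL2RA and FOXP3 turned to 0.37 and 0.48 with normexp, to 0.083 and 0.242 with the table, and to 0.23 and 0.33 with the table and 6 dogs. Genes with a large spread between dogs turned most often. KRT14 turned to 0.10 with arrays as samples, and slide as a block turned KRTDAP (0.44), SLPI (1.31), KRT15 (0.44), LTF (0.51) and KRT14 (0.64). A random slide block turned KRTDAP (0.23), SLPI (0.0437) and KRT14 (0.18). Scan day as a block, which leaves out malignant 5 in effect, turned KRTDAP (0.34), SLPI (1.31), KRT15 (0.41), LTF (0.52) and KRT14 (0.63). Without malignant 3 and 5 the turned values were KRTDAP 0.87, SLPI 2.59, KRT15 1.21, CDH1 0.39, LTF 1.29, ESR1 -0.27 and KRT14 1.51. Leaving out 1 dog at a time, VIM ran from -0.63 to 0.34, KRTDAP from -2.20 to 3.38, CSN2 from -0.11 to 3.82, LALBA from -0.30 to 3.98, ESR1 from -0.83 to 2.22, KRT14 from -1.94 to 1.35, KRT1 from -0.53 to 3.13, SLPI from -4.04 to 1.31, KRT15 from -3.46 to 0.41, LTF from -2.77 to 0.71, H19 from -3.75 to 1.96 and COL2A1 from -1.13 to 3.90. The causes were not tested. Signal over background limits the dim genes, most of all in malignant 3.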
